A study of Mus musculus with 4 samples.

Results

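Barcodes with transcripts of dividing cells were taken from cultured kidney Gli1+ cells that had received TGF-β for 12 h. Gene expression had been measured by Drop-seq, which captures single cells in droplets with barcoded beads. A barcode is taken here to stand for 1 captured cell, which was not checked for each barcode. The members were the 12 h barcodes with 1000 or more total counts in which Mki67, Top2a, Cenpf, Cenpe, Hmmr, Tpx2, Birc5, Prc1, Kif23 and Anln together had 5 or more counts. By this rule 103 of 865 such barcodes were members, out of 1120 barcodes in the 12 h library and 3298 in the series. They were compared with the 510 barcodes of the same library and depth limit in which the 10 genes had no count. The other 252 barcodes, with 1 to 4 counts, were kept apart. The 10 genes were left out of every expression value and every total in this comparison.

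The cells came from male mice aged 12 weeks and are called a primary culture in the labels, while the title of the series speaks of a conditionally immortalized line. Genotype and strain are not stated in the labels, and Gli1 itself is not among the genes of the table. Each culture was kept serum-free for 2 h. TGF-β at 1 ng/ml was then added for 6, 12 or 24 h, and a control without TGF-β, labelled 0 h, was collected before that step. Later untreated cultures were not analysed here, so time with TGF-β and time without serum cannot be told apart. Each time point had 1 library. No difference below has a replicate check, no test was made, and the ranges in parentheses are exact 95% intervals that cover counting error only.

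A cell that divides copies its DNA in S phase, condenses its chromosomes in G2 and mitosis, and separates them on a spindle of microtubules before it is cut apart by an actin ring. Many transcripts of mitosis are made only late in this cycle and are destroyed soon after, so they mark cells that were near division at harvest. Gli1+ mesenchymal cells of the kidney lie around vessels and tubules, proliferate after injury and give rise to myofibroblasts, which deposit collagen and carry contractile actin fibres. TGF-β is known both for driving that transition and for restraining the cell cycle in many cell types.

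The libraries held between 192 and 1328 barcodes and between 106826 and 6166324 counts, and no barcode sequence was shared between libraries. In the library labelled 0 h the content did not match the label. Its proximal tubule markers summed to 17917 CPM, which is counts scaled to a total of 1000000 (17123 to 18738), against 1.41 CPM (0.607 to 2.77) at 12 h, and its mesenchymal markers summed to 56.2 CPM against 7499 CPM. It was used here only to count barcodes that met the rule, and 0 of its 13 barcodes with 1000 or more counts did, which allows a share of up to 24.7%. In the 12 h library, 257 of 1120 barcodes differed by 1 base from another barcode of the library, 17 of them members and 53 of them in the comparison group, and no 2 members differed by 1 base. Scrublet, a doublet caller, marked 6 of 103 members and 7 of 510 barcodes of the comparison group, a larger share of the members. All were kept.

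The rule was met by 27 of 80 barcodes at 6 h (33.75%, 23.6% to 45.2%), by 103 of 865 at 12 h (11.9%, 9.82% to 14.3%) and by 10 of 933 at 24 h (1.07%, 0.515% to 1.96%). A fixed number of counts is easier to reach in a deeper barcode, so each barcode was also thinned at random to 1000 counts. After thinning, 43.75% (32.7% to 55.3%) of barcodes at 6 h, 18.3% (15.7% to 21.01%) at 12 h and 6.54% (5.04% to 8.32%) at 24 h had 1 or more counts of the 10 genes. With 2 or more counts required, the shares were 32.5% (22.4% to 43.9%), 9.25% (7.40% to 11.4%) and 1.18% (0.590% to 2.10%). The order of the libraries was thus the same with and without thinning. The library and the time cannot be told apart in these shares, and only 80 of 658 barcodes at 6 h reached 1000 counts. No cell type in these libraries is known to lack the 10 genes, so the share that free RNA gives was not measured.

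**Figure D1:**
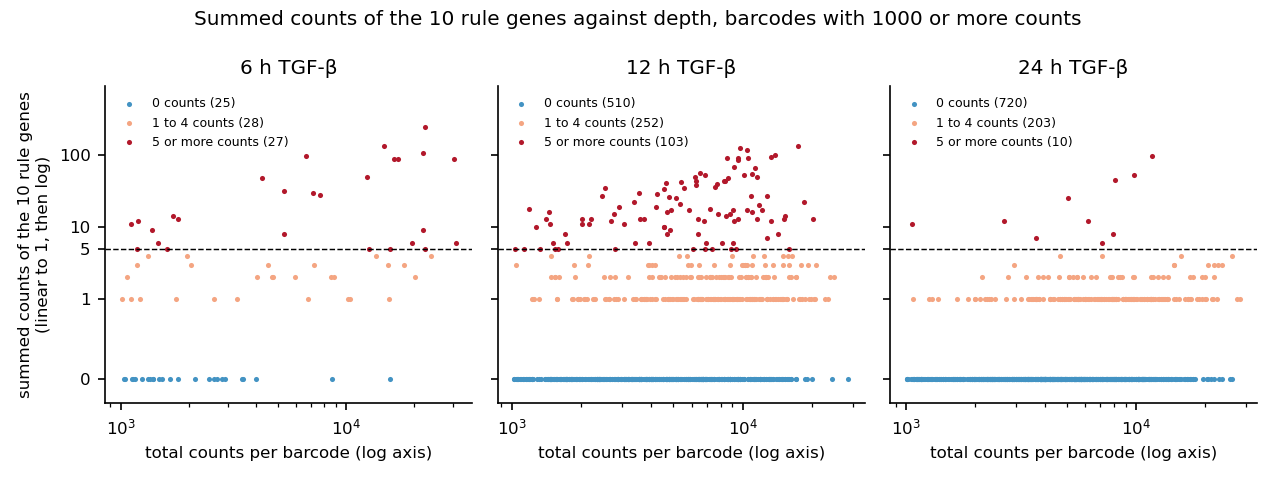
Summed counts of the 10 genes (vertical axis, linear to 1 and logarithmic above) against total counts per barcode (logarithmic axis) in the 6, 12 and 24 h libraries; each point is 1 barcode with 1000 or more counts, and the dashed line marks 5 counts. Members numbered 27, 103 and 10, and barcodes without a count of the 10 genes 25, 510 and 720.

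The values that chose the members are given as a description. In the 12 h members the 10 genes summed to between 5 and 133 counts, with a median of 16, and 78 members had 10 or more. Hmmr, a microtubule-binding protein of the spindle, had 362 counts over the members, and Top2a, the topoisomerase that untangles sister chromatids, had 354 in 57 members. Mki67, which coats mitotic chromosomes, had 297 counts in 86 members. Birc5 and Cenpf, which act at centromeres and kinetochores, had 200 and 295, and Prc1 and Anln, which act at the midzone and the cleavage furrow, had 134 and 255. Every member had counts of at least 3 of the 10 genes, and the median was 7. At 24 h, 1 of the 10 members had counts of 1 gene only. Just inside the limit, 12 barcodes had a sum of 5 and a median total of 4440 counts. Just outside it, 10 barcodes had a sum of 4 and a median total of 10019.5 counts, so those just outside were the deeper ones.

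Members had a median total of 6385 counts (1030 to 20161), against 4189 (1025 to 28493) in the comparison group and 7475.5 in barcodes with 1 to 4 counts. Without the 10 genes, the members summed to 717388 counts and the comparison group to 2758082, so that 1 count stood for 1.39 and 0.363 CPM. Mitochondrial genes took 2.17% and 2.33% of these counts, and ribosomal protein genes 11.1% and 11.2%. Malat1, a long RNA that stays in the nucleus, took 0.603% in members and 1.27% in the comparison group. Because a sum below 5 is likelier in shallow barcodes, each main value was also computed against 103 comparison barcodes matched to the members on total counts, whose median total was 6390.

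The clearest difference beyond the 10 genes was in other transcripts of mitosis. Of the 2242 genes at 100 CPM or more in either group, 70 (3.12%) were at least 2-fold higher in members and 13 (0.58%) at least 2-fold lower. Most of the 70 lay below 100 CPM in the comparison group. These passed the floor only through the members and had to be higher. Some of the 13 passed it only through the comparison group and had to be lower. The balance of 70 to 13 is therefore set in part by the floor. Of the 70, 31 belonged to 5 lists of mitotic genes and 8 to a list of S phase genes. The remaining 31 belonged to neither, among them Rad21, a cohesin subunit (413 against 133 CPM), Ezh2, the Polycomb methyltransferase (374 against 130 CPM), and Knstrn, a kinetochore-bound spindle protein (166 against 7.61 CPM). These 3 were chosen after their values were seen. The rule picked barcodes by genes of the same programme in the same cells, so these values describe the members and support nothing about them.

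Ccnb2, the cyclin B2 that partners Cdk1 at mitotic entry, stood at 326 CPM (286 to 371) in members and 6.89 CPM (4.15 to 10.8) in the comparison group, a ratio of 47.3 (29.6 to 80.1). It was found in 81 of 103 members and in 17 of 510 comparison barcodes. Cenpa, the centromeric histone H3, was at 224 against 5.08 CPM, and Nuf2, of the kinetochore's microtubule-binding Ndc80 complex, had 111 counts in members against 1 in the comparison group. Bub1, a kinase of the spindle checkpoint, was at 166 against 2.18 CPM, and Cdc20, which activates the anaphase-promoting complex, at 145 against 3.63 CPM. The spindle proteins Ckap2l and Dlgap5 were at 149 and 144 CPM, each against 1.09 CPM from 3 counts. The motor proteins Kif20a and Kif15 were at 152 against 2.90 CPM and 116 against 0.725 CPM. Cdca3, a trigger of mitotic entry, was at 128 against 1.81 CPM, and Ncapg, a condensin subunit, at 106 against 0.725 CPM. Diap3, a formin that assembles actin filaments, was at 321 CPM (281 to 365) against 21.4 CPM (16.3 to 27.6). These 12 genes had the highest log2 ratios of CPM plus 10 where 1 group or both reached 100 CPM. That scale lowers the rank of genes with few comparison counts, and genes outside the 12, such as the spindle protein Aspm at 105 against 1.09 CPM, had larger plain ratios than Diap3. With depth-matched comparison barcodes Ccnb2 was at 326 against 5.56 CPM and Diap3 at 321 against 26.4 CPM. Cdc20 shares exon sequence with Elovl1, Ncapg with Lcorl and Kif20a with Cdc23, each on the opposite strand, and the labels do not say whether counting used strand. Diap3 was not found by that name in the annotation.

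Promoters of late cell cycle genes often hold CCAAT boxes, bound by NF-Y, and a cell cycle homology region with the core TTTGAA or TTCGAA, bound by the DREAM and MuvB complexes. Promoter sequence came from RefSeq on GRCm38.p6, from 250 bases before to 50 bases after each gene's start, and 9 of the 12 genes had an entry. Both strands were searched for CCAAT, which reads ATTGG on the opposite strand, for TTTGAA, which reads TTCAAA there, and for TTCGAA, which is its own reverse complement. No one of these motifs contains another. CCAAT was found in 7 of the 9 promoters and TTTGAA or TTCGAA in 8, and 7 held both. Over 27025 promoters of the same length, 37.9% held CCAAT, 19.4% held TTTGAA or TTCGAA and 7.70% held both. Of the 1722 matched promoters of genes at 100 CPM or more in either 12 h group, 6.04% held both. Among the 12 genes with the lowest log2 ratios, 9 had an entry, of which 3 held CCAAT and 0 held TTTGAA or TTCGAA. Of the 10 genes of the rule, 9 had an entry and 6 held both. The 150 bases before the start are shown for Ccnb2, Ckap2l and Cdc20, 5′ to 3′ on the gene's strand, with the matches in capitals. The Ccnb2 window is chr9:70421555-70421704, the Ckap2l window chr2:129297213-129297362 and the Cdc20 window chr4:118437344-118437493, all 3 on the minus strand. They were chosen to show 3 arrangements of the same letters.
Ccnb2: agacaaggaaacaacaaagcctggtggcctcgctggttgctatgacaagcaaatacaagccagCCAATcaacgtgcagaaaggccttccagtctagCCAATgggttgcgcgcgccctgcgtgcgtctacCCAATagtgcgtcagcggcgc
Ckap2l: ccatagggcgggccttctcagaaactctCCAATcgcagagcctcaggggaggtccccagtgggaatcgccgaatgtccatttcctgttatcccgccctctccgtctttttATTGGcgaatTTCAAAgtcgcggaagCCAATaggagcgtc
Cdc20: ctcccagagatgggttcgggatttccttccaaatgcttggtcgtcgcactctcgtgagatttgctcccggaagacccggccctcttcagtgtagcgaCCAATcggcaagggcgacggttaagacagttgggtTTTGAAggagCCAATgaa

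In the Ccnb2 window the 3 CCAAT matches begin 33 bases apart from each other, and its TTTGAA matches lie outside the printed bases. In the Ckap2l and Cdc20 windows a TTTGAA or TTCAAA match lies between CCAAT or ATTGG matches. Nuf2 had an entry and held neither motif in its 300 bases. A match is a description of letters and not a measured binding site.

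The mitotic lists were described by role, and their summed CPM covers every member in the table. Together the 5 lists, with 93 genes in the table, summed to 9753 CPM in members and 2194 CPM in the comparison group, a ratio of 4.45 (4.29 to 4.60). Cyclins and mitotic kinases, 21 genes, summed to 1427 against 125 CPM, a ratio of 11.4 (10.1 to 12.9). Kinetochore and checkpoint genes, 18 in the table, summed to 1526 against 101 CPM (ratio 15.1, 13.3 to 17.3), and 26 spindle and cytokinesis genes to 2386 against 234 CPM (ratio 10.2, 9.32 to 11.2). Chromosome structure genes, which include condensins and the abundant HMG proteins, summed to 3313 against 1143 CPM, a ratio of 2.90 (2.75 to 3.06). The subunits and partners of the anaphase-promoting complex, the ligase that ends mitosis, summed to 1100 against 591 CPM (ratio 1.86, 1.71 to 2.03).

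At a mean of 20 CPM or more over both groups, 75 of the 93 mitotic genes were measured, and 66 were at least 1.5-fold higher in members and 0 lower, against 8.08% higher and 6.4% lower of all 6559 such genes. Of the 75, 54 reached this floor only through the members, so that they had to be higher. Of the 21 that the comparison group alone carried past 20 CPM, 12 were at least 1.5-fold higher. Ccnb1, the other main B cyclin, had 48 counts in members and 1 in the comparison group, and Plk1, a kinase of mitotic entry, had 38 and 1. Cdk1, the kinase that drives mitosis, was at 117 CPM (93.4 to 145) against 16.7 CPM (12.2 to 22.2). Smc2 and Smc4, the condensin core, were at 323 against 27.2 CPM and 410 against 63.4 CPM, and Hmgb2, a DNA-bending protein, at 181 against 8.70 CPM. Within the anaphase-promoting complex list, Cdc20, Ube2c and Fbxo5 were at least 1.5-fold higher, while the constitutive subunit Anapc1 was at 54.4 against 56.2 CPM. Of 10 measured tubulins, 3 were at least 1.5-fold higher, among them Tuba1b, an alpha tubulin, at 297 CPM (258 to 340) against 134 CPM (120 to 148). The beta tubulin Tubb5 was at 574 against 556 CPM.

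Genes of DNA replication were higher as well. The S phase list, with 51 genes in the table, summed to 2784 CPM in members and 755 CPM in the comparison group, a ratio of 3.69 (3.47 to 3.92). Of 26 measured members 25 were at least 1.5-fold higher, against 8.08% of all genes. Of the 26, 16 reached the floor only through the members. The other 10 were at least 1.5-fold higher too. Rrm1 and Rrm2, the subunits of ribonucleotide reductase, were at 199 against 21.8 CPM and 138 against 9.79 CPM. Pcna, the sliding clamp of DNA polymerase, was at 187 CPM (157 to 221) against 71.1 CPM (61.5 to 81.7), and Mcm6, of the replicative helicase, at 79.5 against 34.4 CPM. Tk1, thymidine kinase 1, had 32 counts in members and 2 in the comparison group.

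Regulators of G1 and arrest were close to all genes. Of 19 measured genes 0 were at least 1.5-fold higher in members and 2 lower, against 8.08% and 6.4% of all genes, and the list's median log2 ratio was -0.01, where the median over all 6559 genes was 0.00079. Cdkn1a, the p21 inhibitor of cyclin-dependent kinases, was at 863 CPM (796 to 934) against 805 CPM (772 to 839), a ratio of 1.07 (0.979 to 1.17). Cdkn2a, the locus of p16 and p19Arf, was at 137 CPM in both. Ccnd1, cyclin D1, was at 927 CPM (858 to 1000) against 896 CPM (861 to 932), while Ccnd2, cyclin D2, was at 592 CPM (537 to 652) against 968 CPM (931 to 1005). Log2 ratios here are of CPM plus 10, which understates differences of low genes.

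**Figure D2:**
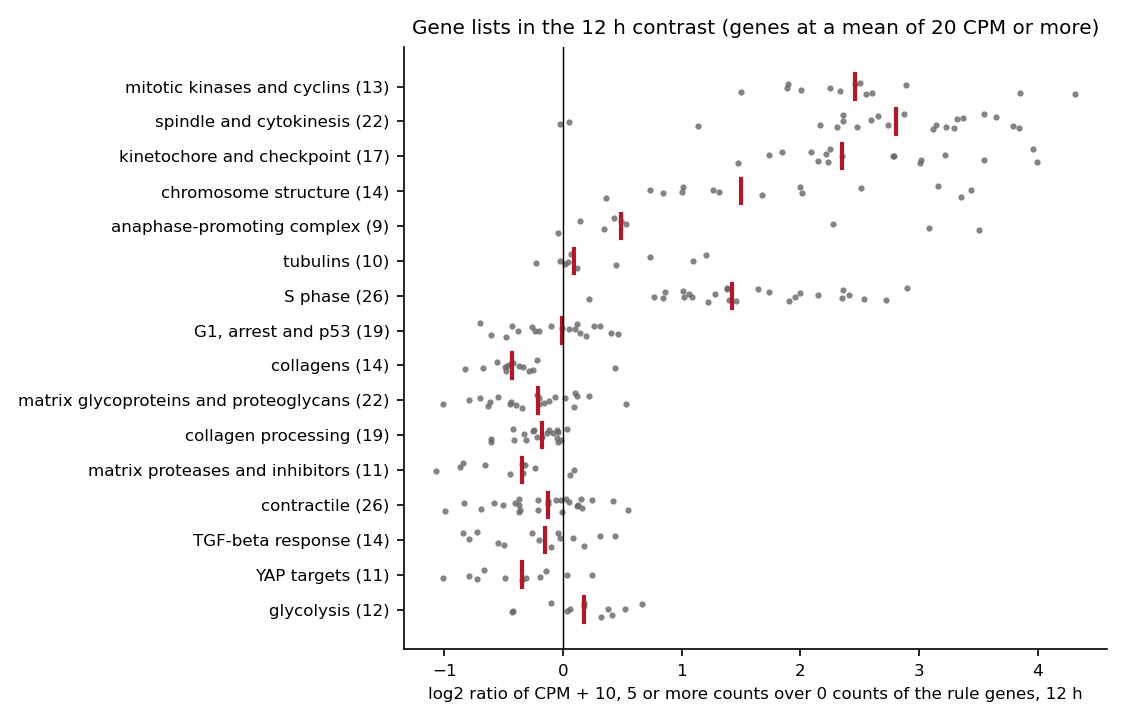
Log2 ratio of CPM plus 10, members over comparison barcodes at 12 h, for each gene of 16 lists at a mean of 20 CPM or more; points are genes, red bars are list medians, and the number of genes is in parentheses. Most points of the mitotic and S phase lists lie above 1, while the collagen median is -0.43 and the contractile median -0.13.

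Summed transcripts of matrix genes were lower in members. The collagens, with 23 genes in the table, summed to 3527 CPM in members and 4949 CPM in the comparison group, 1.40-fold lower (1.35 to 1.47). Of 14 measured collagens 0 were at least 1.5-fold higher and 4 lower, against 8.08% and 6.4% of all genes, and their median log2 ratio was -0.43. Col1a1 and Col1a2, the chains of the main fibrillar collagen, were at 351 CPM (309 to 397) against 474 CPM (449 to 501) and at 2010 CPM (1908 to 2117) against 2787 CPM (2725 to 2850). Col3a1 was at 130 CPM (105 to 159) against 180 CPM (164 to 196), 1.39-fold lower (1.11 to 1.75). The 4 that were at least 1.5-fold lower were Col5a2, which regulates fibril diameter, at 435 against 699 CPM, and Col8a1, Col4a2 and Col18a1. Col8a1, a short-chain collagen, was at 41.8 CPM (28.2 to 59.7) against 81.9 CPM (71.6 to 93.3). Col4a5 of basement membranes was the exception above a ratio of 1, at 40.4 against 27.2 CPM.

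Glycoproteins and proteoglycans of the matrix summed to 13811 against 17574 CPM, 1.27-fold lower (1.25 to 1.30), and 5 of 22 measured members were at least 1.5-fold lower, against 6.4% of all genes. Fn1, fibronectin, was at 2156 CPM (2050 to 2267) against 3151 CPM (3085 to 3218), 1.46-fold lower (1.38 to 1.54). Thbs1, thrombospondin 1, which can activate latent TGF-β, was at 420 CPM (374 to 470) against 854 CPM (820 to 889). Fstl1, a secreted follistatin-like protein, was at 891 against 1450 CPM, and Ltbp2, of the elastic microfibrils, at 69.7 against 128 CPM. Sparc, which binds collagen, was at 1664 against 2274 CPM. Nid1, the basement membrane linker nidogen, went the other way, at 541 CPM (488 to 597) against 371 CPM (349 to 394). Postn, periostin, had 0 counts in members and 2 in the comparison group.

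Enzymes that modify and crosslink collagen summed to 2858 against 3296 CPM, 1.15-fold lower (1.10 to 1.21), and 2 of 19 were at least 1.5-fold lower, against 6.4% of all genes. These were Bmp1, which trims procollagen, and the crosslinking oxidase Loxl1, while the oxidase Lox was at 315 against 347 CPM. Matrix proteases and their inhibitors summed to 7789 against 12299 CPM, 1.58-fold lower (1.54 to 1.63). Timp3, a metalloproteinase inhibitor bound to the matrix, was at 3210 CPM (3080 to 3344) against 6747 CPM (6650 to 6845), 2.10-fold lower (2.01 to 2.20). Timp1, its soluble relative, was at 1100 against 1028 CPM.

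Contractile genes did not move as a block. The list summed to 16765 against 18320 CPM, 1.09-fold lower (1.07 to 1.12), and of 26 measured members 0 were at least 1.5-fold higher and 4 lower, where 8.08% and 6.4% of all genes were. Acta2, the smooth muscle actin that marks myofibroblasts, was at 89.2 CPM (68.7 to 114) in members and 98.6 CPM (87.2 to 111) in the comparison group, and these intervals overlapped. It had a count in 32 of 103 members and in 115 of 510 comparison barcodes, at median totals of 6385 and 4189 counts. Against depth-matched barcodes Acta2 stood at 89.2 against 141 CPM, while with equal weight for each barcode its log2 ratio was 0.21, so its direction was not settled. Tagln and Myl9, of smooth muscle, had 1 and 0 counts in members and 6 each in the comparison group.

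The members that were at least 1.5-fold lower act at focal adhesions and stress fibres. Zyx, zyxin, was at 96.2 CPM (74.8 to 122) against 180 CPM (164 to 196), Tgfb1i1, the adhesion protein Hic-5, at 27.9 against 65.3 CPM, Cnn2, calponin 2, at 339 against 553 CPM, and Actn1, an actin crosslinker, at 537 against 809 CPM. Tpm1, a tropomyosin, was at 1275 CPM (1194 to 1361) against 1657 CPM (1610 to 1706), and Cald1, caldesmon, at 2700 against 3582 CPM. Some other genes of the actin cytoskeleton were higher in members. Myh10, non-muscle myosin IIB, was at 439 CPM (392 to 490) against 325 CPM (304 to 347) and Tagln2 at 563 against 383 CPM, while Myh9, non-muscle myosin IIA, was at 712 against 921 CPM. Actb, cytoplasmic beta actin, was at 4877 CPM (4717 to 5042) against 4489 CPM (4411 to 4569), a ratio of 1.09 (1.05 to 1.13). Vim, the mesenchymal intermediate filament vimentin, was at 4288 against 4100 CPM.

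**Figure D3:**
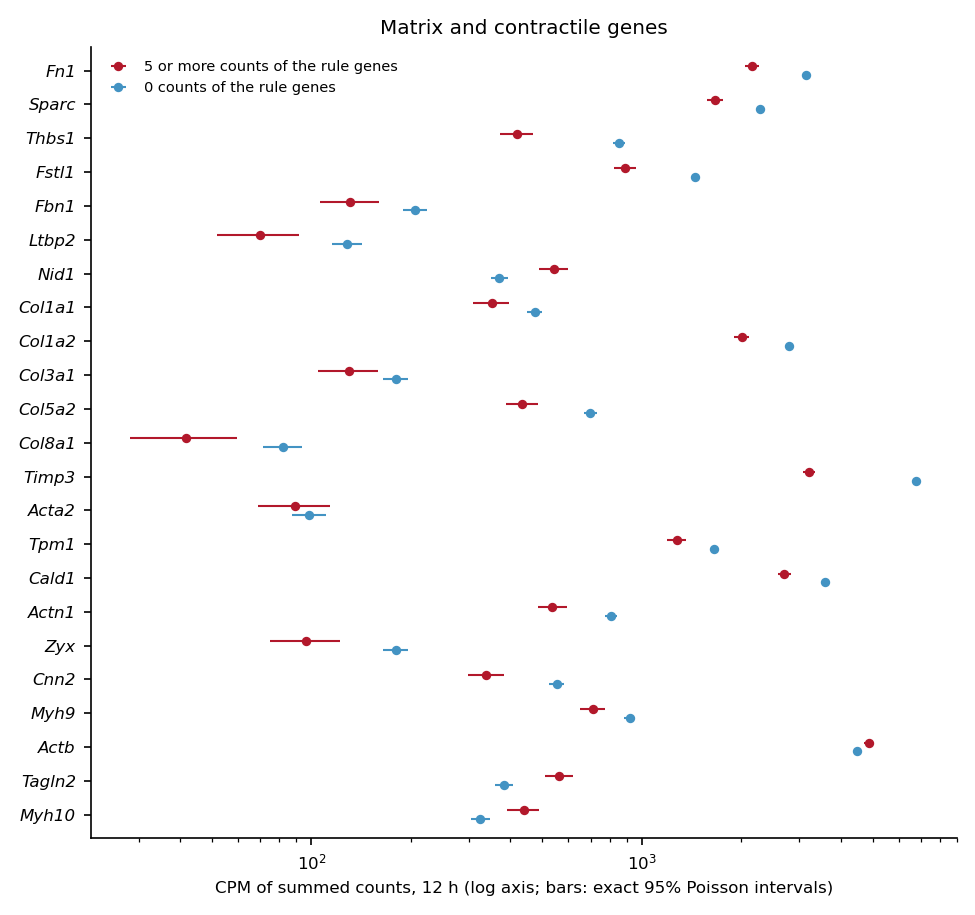
CPM of summed counts at 12 h (logarithmic axis) for 23 matrix and contractile genes in members (red) and comparison barcodes (blue); bars are exact 95% Poisson intervals. Fn1, Timp3, Thbs1 and the collagens shown lie to the left in members, the Acta2 intervals overlap, and Nid1, Actb, Tagln2 and Myh10 lie to the right.

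Summed transcripts of the TGF-β response and of YAP targets were lower in members. The TGF-β response list summed to 2405 against 3223 CPM, 1.34-fold lower (1.27 to 1.41), with 4 of 14 measured genes at least 1.5-fold lower and 0 higher, against 6.4% and 8.08% of all genes. The list's median log2 ratio was -0.15, and it changed sign, to 0.10, with equal weight for each barcode. Ctgf, a matricellular protein induced by TGF-β and YAP, was at 454 CPM (406 to 507) against 756 CPM (724 to 789). Smad7, the inhibitory Smad, was at 93.4 against 87.7 CPM, and Pmepa1, a feedback inhibitor of the pathway, at 641 against 909 CPM. The YAP target list summed to 2016 against 3344 CPM, 1.66-fold lower (1.57 to 1.76), with 4 of 11 at least 1.5-fold lower, against 6.4% of all genes. Ankrd1, a muscle ankyrin repeat protein and YAP target, was at 675 CPM (616 to 738) against 1367 CPM (1324 to 1412). Ctgf belongs to both lists, so they are not separate.

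The 12 genes with the lowest log2 ratios of CPM plus 10, by the same floor, were of mixed kinds. Malat1 was at 6032 CPM (5853 to 6214) against 12729 CPM (12596 to 12863), and Meg3, another nuclear long RNA, at 633 CPM (576 to 694) against 1599 CPM (1552 to 1647). Neat1, the RNA of nuclear paraspeckles, was at 301 against 517 CPM. All 3 measured nuclear RNAs were thus at least 1.5-fold lower, against 6.4% of all genes. Ptgs2, the inducible cyclooxygenase, was at 137 against 335 CPM, Igfbp3, an IGF-binding protein, at 92.0 against 227 CPM, and Bdnf, a neurotrophin, at 280 against 577 CPM. Piezo2, a stretch-activated channel, was at 188 against 411 CPM, Serpinb6b, an intracellular protease inhibitor, at 335 against 800 CPM, and Mxd4, a repressor that competes with Myc for Max, at 164 against 336 CPM. Syn3 was at 71.1 against 195 CPM, and its exons overlap Timp3 on the opposite strand, so that their counts cannot be told apart here. Thbs1, Timp3 and Ankrd1 completed the 12. Lrrc32, outside the 12 on this scale, was at 46.0 against 100.4 CPM, a plain ratio below those of several of them. Meg3, Fn1, Zyx, Ltbp2, Ncam1, Tagln and Col4a2 also share exon sequence with a gene of the table on the opposite strand.

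Among other lists, glycolysis summed to 2819 against 2340 CPM, a ratio of 1.20 (1.15 to 1.27), with Ldha, lactate dehydrogenase A, at 576 CPM (522 to 634) against 359 CPM (337 to 382). The mitogen-regulated Prl2c2, proliferin, was at 2009 CPM (1906 to 2115) against 1314 CPM (1272 to 1357), and Igf1 at 185 against 320 CPM. Chemokines and cytokines summed to 1752 against 2167 CPM. Of 8 measured genes 1 was at least 1.5-fold higher and 1 lower, against 8.08% and 6.4% of all genes. Cholesterol synthesis genes summed to 590 against 629 CPM, and their ratio of 0.938 (0.841 to 1.04) had an interval that included 1. Of 9 immediate early genes 0 were 1.5-fold higher or lower, against the same shares of all genes.

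Both groups carried the markers of mesenchymal cells, which summed to 6861 CPM in members and 7615 CPM in the comparison group. Many markers of other kidney cells had 0 counts in members, but not every list was near 0. The mural list, for cells of vessel walls, summed to 118 CPM from 85 counts in members, against 136 CPM. Its ratio was 0.871 (0.680 to 1.11). The 11 proximal tubule markers, 5 macrophage markers, 2 lymphocyte markers and the erythroid marker had 0 counts. The list for loop, distal tubule and collecting duct had 2 counts over 7 genes, with Slc12a1, Umod and Aqp2 at 0. Endothelial markers summed to 22.3 against 6.16 CPM, from 16 counts in members that were nearly all of Flt1 and Egfl7, with Cdh5, Pecam1, Emcn and Tek at 0. The podocyte list summed to 89.2 against 119 CPM, with Nphs1 and Wt1 at 0 and 62 of 64 counts from Synpo. The Schwann and neural list summed to 176 against 268 CPM, mostly from Ncam1.

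Members varied widely among themselves. Per 10000 counts of a barcode, the mitotic lists took 23.6 at the lowest, 114 at the median and 239 at the highest in members, against a median of 20.9 and a highest value of 57.8 in the comparison group. Of 103 members, 72 lay above the highest comparison barcode and 31 within its range. Of the 252 barcodes with 1 to 4 counts of the 10 genes, 8 lay above that value as well. The S phase list took 0, 23.8 and 117 per 10000 at the lowest, median and highest, and 29 members lay above the highest comparison value of 37.0. Mitotic counts exceeded S phase counts in 102 members and fell short of them in 1. The mitotic lists hold 93 genes in the table and the S phase list 51. The comparison group had the same order, with medians of 20.9 and 6.98 per 10000. The members were also chosen by mitotic genes, so the count of 102 does not place them in a phase.

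In the matrix and contractile lists all 103 members lay within the range of the comparison barcodes. At the high end 0 members lay above it. At the low end, the lowest member and the lowest comparison barcode both took 0 per 10000 of collagens. They took 53.4 and 17.1 of matrix glycoproteins and 23.7 and 17.1 of proteases and inhibitors. For contractile genes they took 97.6 and 68.2. Collagens took a median of 34.4 per 10000 in members (0 to 71.7) and 46.8 in the comparison group, and 82 of 103 members lay below the comparison median. For matrix glycoproteins 96 members lay below it (137 against 175), and for proteases and inhibitors 90 did (68.1 against 115). For contractile genes 69 did (166 against 179). Fn1 took 4.73 to 57.6 per 10000 in members with a median of 19.8, against a median of 29.4, and 81 members lay below the latter. Malat1 took a median of 32.3 against 102, with 88 members below. In the comparison group itself 50% of barcodes lie below its median by construction.

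**Figure D4:**
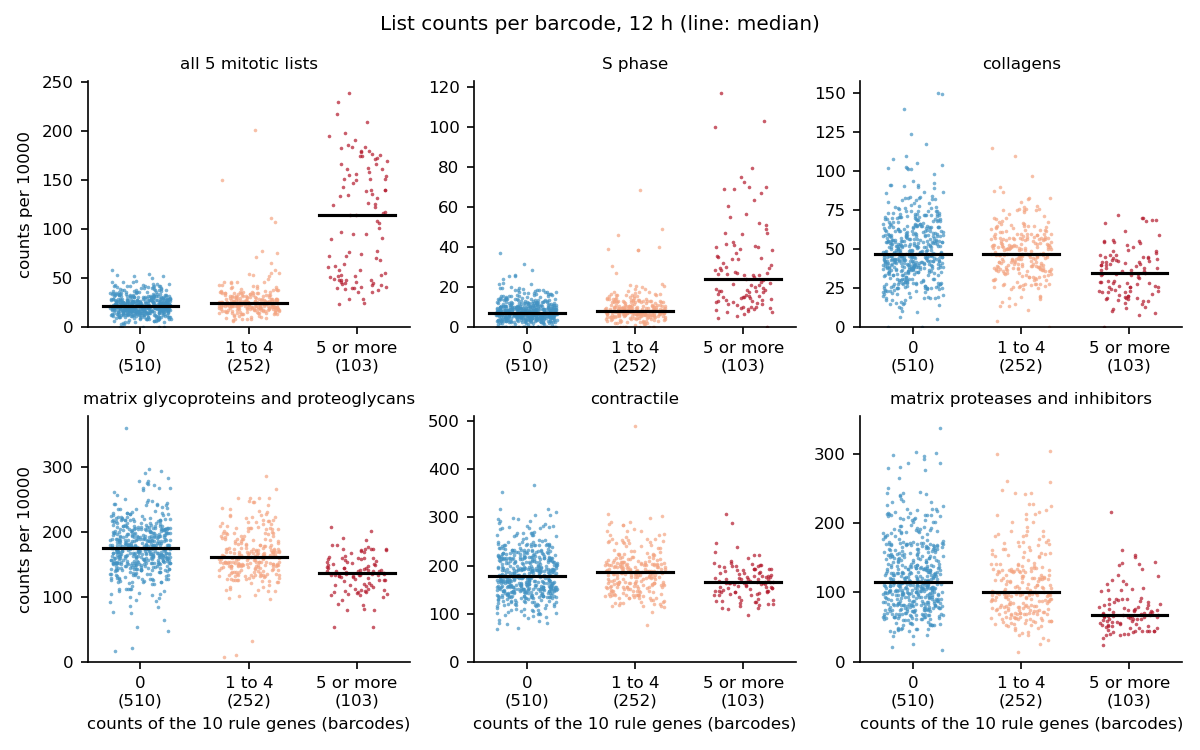
Counts per 10000 of 6 gene lists in each 12 h barcode, by counts of the 10 genes (510 barcodes with 0, 252 with 1 to 4 and 103 with 5 or more); each point is 1 barcode and lines are medians. Members rise above the other barcodes in the mitotic lists (median 114 against 20.9 with 0 counts) and overlap with them in the 4 matrix and contractile lists.

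Barcodes with 1 to 4 counts of the 10 genes were close to the comparison group in most lists. Their collagens summed to 4915 CPM, against 4949 CPM with 0 counts and 3527 CPM in members. Their contractile genes summed to 18688 CPM and their mitotic lists to 2543 CPM. Fn1 was at 2742 CPM in them and Malat1 at 10307 CPM, each between the other groups. When the members were split by their own sum, the 25 with 5 to 9 counts had a median log2 ratio of -0.30 over collagens and -0.11 over contractile genes, and the 78 with 10 or more had -0.45 and -0.15. The mitotic median was 1.13 in the former and 2.59 in the latter, a difference that the split itself fixes.

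The same split at 6 and 24 h rested on fewer barcodes. At 6 h, 27 members with 305206 counts faced 25 comparison barcodes with 69554 counts, where 1 count stood for 14.4 CPM and 1 barcode held 22.6% of all counts. Median totals there were 7657 and 1660. At 24 h, 10 members with 62995 counts faced 720 comparison barcodes with 4131693 counts, and 1 count of the members stood for 15.9 CPM. At 6 h, of 5938 genes 27.5% were above the 1.5-fold limit and 21.2% below it, and at 24 h 28% and 23.2% of 6328 genes, so counts of genes were not read at these times. At the 2-fold limit 9.76% were higher and 7.24% lower at 6 h, and 9.74% and 6.84% at 24 h.

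The mitotic and S phase lists stood apart at all 3 times. The mitotic lists summed to 9554 CPM in members and 1955 CPM in the comparison group at 6 h, a ratio of 4.89 (4.11 to 5.85), and the ratio was 5.38 (4.99 to 5.80) at 24 h. The S phase list had ratios of 3.87 (2.97 to 5.13) at 6 h and 6.92 (6.13 to 7.78) at 24 h. All 12 genes with the highest log2 ratios of CPM plus 10 at 12 h were above even at both other times, with log2 ratios of 2.32 to 3.85 at 6 h and 2.19 to 4.50 at 24 h. The first 12 hold genes of the programme the rule reads. All 12 with the lowest were below even, from -1.56 to -0.20 at 6 h and from -2.06 to -0.48 at 24 h. The median over all 5938 and 6328 genes was 0.027 and 0.090, and the share of all genes below even was not computed. At 6 h the ratio intervals of Piezo2 (0.121 to 3.19, from 7 and 3 counts), Ptgs2 (0.623 to 1.23) and Mxd4 (0.301 to 1.10) included even. Syn3 and Timp3 overlap, so the 12 are not all separate. Timp3 was at 1245 CPM (1123 to 1377) versus 2875 CPM (2491 to 3303) at 6 h and, at 24 h, at 1889 CPM (1565 to 2261) versus 4767 CPM (4700 to 4834). Malat1 was at 7998 against 14032 CPM and at 5794 against 12491 CPM. The 6 h sums rest on few comparison barcodes. Per 10000 counts of a barcode, the Malat1 median at 6 h was 28.2 in members and 17.8 in the comparison group, opposite to the sums. The highest comparison barcode took 3134. Timp3 medians at 6 h were close, at 8.496 and 8.897. At 24 h both medians were lower in members, at 38.1 against 111 for Malat1 and 18.9 against 40.1 for Timp3. Cdkn1a was at 645 CPM (558 to 742) versus 388 CPM (256 to 565) at 6 h and, at 24 h, at 1254 CPM (993 to 1563) versus 653 CPM (628 to 678). Its intervals overlapped at 6 and 12 h and did not at 24 h. At 6 h its ratio was 1.66, and the interval of that ratio (1.11 to 2.59) lay above even.

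Summed collagens and matrix glycoproteins did not keep 1 direction across the libraries. Summed matrix proteases and inhibitors were lower in members in each, 1.30-fold (1.18 to 1.43) at 6 h and 1.72-fold (1.55 to 1.92) at 24 h. Per 10000 counts of a barcode, their median at 6 h was 43.7 in members and 39.3 in the comparison group, opposite to the sums. Collagens summed to 2411 CPM in members and 1955 CPM in the comparison group at 6 h, a ratio of 1.23 (1.03 to 1.49), and to 3699 against 5970 CPM at 24 h, 1.61-fold lower (1.42 to 1.84). Fn1 was at 898 CPM (795 to 1011) versus 618 CPM (447 to 833) at 6 h and, at 24 h, at 2048 CPM (1710 to 2433) versus 3471 CPM (3415 to 3528). Sparc was at 1651 against 992 CPM at 6 h and at 1667 against 2641 CPM at 24 h. Without the deepest comparison barcode at 6 h the collagen median moved from 0.17 to 0.53, and with barcodes of 2000 or more counts, 19 against 11, it was 0.0075 and that of matrix glycoproteins was -0.10 in place of 0.15. The direction at 6 h therefore rests on few comparison barcodes.

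Contractile genes summed to 19004 CPM in members and 21221 CPM in the comparison group at 6 h, 1.12-fold lower (1.05 to 1.18), although the list's median log2 ratio was 0.17, and the median was -0.03 without the deepest comparison barcode. At 24 h they summed to 15303 against 21359 CPM, 1.40-fold lower (1.31 to 1.49). Acta2 was at 760 CPM (666 to 864) versus 819 CPM (621 to 1062) at 6 h. At 24 h it had 1 count in 62995 in members, which is 15.9 CPM (0.402 to 88.5), against 399 CPM (380 to 419). Tpm1 was at 1445 against 1812 CPM at 6 h and at 1492 against 2517 CPM at 24 h. At 24 h, with members of 3 or more counts of the 10 genes in place of 5, the collagen median was 0.07 and the contractile median 0.04, in place of -0.49 and -0.43. Whether the difference between members and comparison barcodes itself differs between libraries was not tested.

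**Figure D5:**
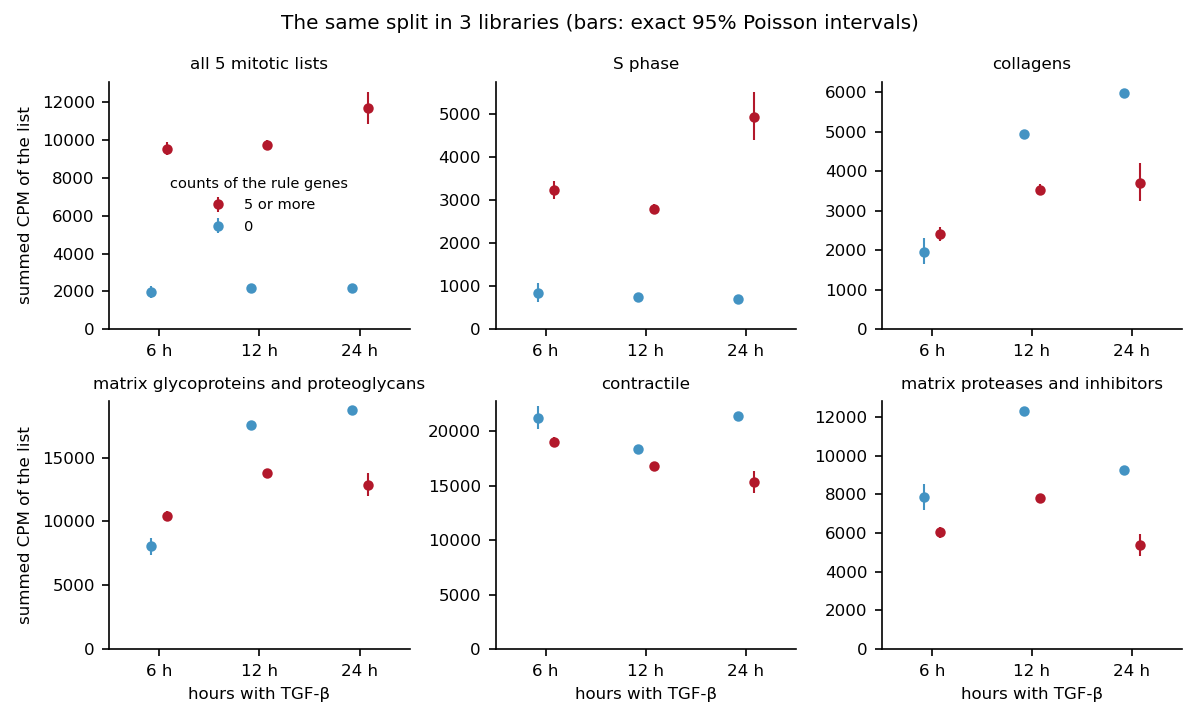
Summed CPM of 6 gene lists in members (red) and comparison barcodes (blue) of the 6, 12 and 24 h libraries; bars are exact 95% Poisson intervals and axes start at 0. The mitotic and S phase lists lie higher in members at each time, and collagens lie higher in members at 6 h (2411 against 1955 CPM) and lower at 12 and 24 h.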

How the data were processed

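Drop-seq libraries of 4 cultures were analysed, 1 per time point. The deposited table holds whole-number counts for 17391 genes and 3298 barcodes, not normalized, and names the library in each column. STAR 2.5.3a and mm10 are the aligner and build in the submitters' processing notes. Neither these notes nor the labels say how reads were counted, by which annotation and strand, or if UMIs were collapsed.

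Counts were summed per group of barcodes and scaled to CPM without the 10 genes of the rule. CPM intervals are exact Poisson, ratio intervals exact conditional binomial and shares exact binomial, at 95%. Members and gene lists were chosen with earlier results of these data known. Named genes are the 12 highest and 12 lowest log2 ratios at 100 CPM or more in either group, without genes named mt-, Rpl, Rps, Mrpl, Mrps, Gm or Rik. Up to 4 members of each list with the largest absolute ratio, genes fixed by name, among them Gli1, Acta2 and Col1a1, and any matrix or contractile gene could be added. Some genes that this rule names are not reported here. Depth per group limits precision, and 3 counts are the limit that a count of 0 allows.

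Scrublet, as in scanpy, marked doublets. Alternatives covered scaling (TMM from edgeR and size factors from DESeq2), pseudocounts, floors, rule limits, depth, doublets and neighbouring barcodes. Gene overlaps came from GENCODE annotation on mm10. The method was tested on simulated data. Analyses ran in Python 3.11.15 (scanpy 1.11.5, scipy 1.17.1, pandas 2.3.3, numpy 2.4.6) and R 4.3.3 (DESeq2 1.42.0, edgeR 4.0.16).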

Additional observations from a re-analysis of the deposited data

How the results depend on the processing

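Over 19 alternatives at 12 h, list medians of the log2 ratio ranged from -0.50 to -0.27 for collagens, from -0.27 to -0.20 for matrix glycoproteins, from -0.22 to -0.11 for contractile genes and from 0.89 to 1.98 for S phase, without a change of sign. The mitotic median was 4.13 with a pseudocount of 1 and 1.11 with 50. The 70 higher and 13 lower genes at 12 h became 145 and 30 with a floor of 50 CPM, 26 and 11 with 200 CPM, 1477 and 2921 with no floor, 148 and 78 at a 1.5-fold limit, 41 and 4 with members of 3 or more counts, 87 and 24 with members of 10 or more, and 92 and 24 with equal weight per barcode. The share higher among these was 84.3%, against 70.3% with a floor of 200 CPM, 65.5% at the 1.5-fold limit and 33.6% with no floor. Without the doublets that Scrublet marked, 73 genes were higher and 9 lower at 12 h. At 24 h, 228 and 160 became 15 and 4 with members of 3 or more counts, where the mitotic median was 0.85, and 402 and 306 with depth-matched barcodes. With 3 or more counts required, 46.25%, 16.0% and 2.25% of barcodes passed at 6, 12 and 24 h, and with 10 or more 20% and 9.02% passed at 6 and 12 h. After thinning to 2000 counts 24.7% and 9.98% had a count of the 10 genes at 12 and 24 h, and after thinning to 5000 counts 72.7%, 38.9% and 21.9% at 6, 12 and 24 h. The cause of these moves was not tested. Acta2 changed sign under 2 alternatives, from -0.60 to 0.21. The TGF-β response median changed sign under 1, from -0.21 to 0.10. Depth matching at 6 h was not run, since 25 comparison barcodes faced 27 members. At 6 and 24 h, leaving out shallow barcodes or the deepest barcode was chosen after seeing the data. No paired analysis was possible because each time point has 1 library.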
